A study of Arabidopsis thaliana with 6 samples.

Results

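PYK10, its partner lectin gene JAL33 and 7 further beta-glucosidase genes with BGLU numbers below 40 were followed in Arabidopsis thaliana seedlings. The seedlings compared were labelled as overexpressing the transcription factor gene ASL9 or as wild type. The members were the listed genes for which the platform annotation pairs a probe set with that gene alone, and they made up 9 of the 13350 genes with a probe set of their own. All 9 had 1 such probe set. RNA was measured on 6 Affymetrix ATH1 arrays, 3 from seedlings of a transgenic line labelled ASL9-ox and 3 from wild-type seedlings of accession Col-0 (stock N1092), all 2 weeks old. All plants grew upright on Murashige and Skoog agar, and the tissue label names the aerial parts, whereas the extraction protocol speaks of seedlings. The promoter of the transgene, the background of the line and the number of independent lines are not stated in the labels, and neither is whether the 3 samples of a group were grown separately, so the spread between them may be technical. ASL9 itself had 0 probe sets paired with it, so the overexpression could not be checked. Every direction below rests on the labels of the arrays. An unnamed probe set described at the end was dim on the arrays labelled ASL9-ox and very bright on those labelled wildtype. If it reads ASL9, the labels are exchanged and every direction below turns round.

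Beta-glucosidases of plants cleave glucose from stored glucosides, which releases defence compounds, hormones or building blocks when enzyme and substrate meet. PYK10, also called BGLU23, is the main enzyme of the ER bodies of roots and hypocotyls, spindle-shaped compartments of the endoplasmic reticulum, and it acts on indole glucosinolates. When cells break, PYK10 forms large complexes with jacalin-related lectins such as JAL33. The bHLH factor NAI1 and the ER body protein NAI2 are needed for ER bodies to form. Among the other members, BGLU15 hydrolyses flavonol glycosides, BGLU28 breaks down glucosinolates under sulfur shortage, and BGLU33, also known as BG2, releases abscisic acid from its glucose ester.

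The members were chosen by name with their signals in this comparison, ASL9-ox against wildtype, already known, so their differences are given as a description, without p-values, and the count of members past the threshold further below is no evidence of a change. Signals were linear values scaled by the authors to a common mean. Differences are of log2(signal + 16), ASL9-ox minus wildtype, on which the added 16 understates the change of dim genes. Each probe set has its own response, so signals of different genes were not set against each other.

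PYK10 (AT3G09260) read 408.1, 428.5 and 452.6 on the arrays labelled ASL9-ox, against 3168, 2847 and 3149 on those labelled wildtype. The groups did not overlap, and the lowest wildtype signal was 6.29 times the highest ASL9-ox signal. The mean was 429.7 ± 22.2 in ASL9-ox and 3055 ± 180 in wildtype (SD, n = 3 each), a log2 difference of -2.78 ± 0.07 (SE). PYK10 transcript thus remained well above a signal of 16 on every array labelled ASL9-ox. In seedling extracts, fewer cells that make a transcript and less transcript per cell cannot be told apart.

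JAL33 (AT3G16450) showed the largest difference of the 9 genes. Its signals were 52.14, 57.32 and 50.70 in ASL9-ox and 857.5, 931.4 and 1117 in wildtype, and the groups lay 15.0-fold apart at their nearest arrays. The means of 53.4 ± 3.49 in ASL9-ox and 969 ± 134 in wildtype (SD, n = 3 each) gave a log2 difference of -3.82 ± 0.10 (SE). Of the 17059 probe sets tested, 31 had a difference as low as this one or lower, itself included, and 93 had one as low as that of PYK10 or lower. The enzyme gene was thus 7.11 times and the lectin gene 18.1 times higher in wildtype by the ratio of mean signals.

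**Figure D1:**
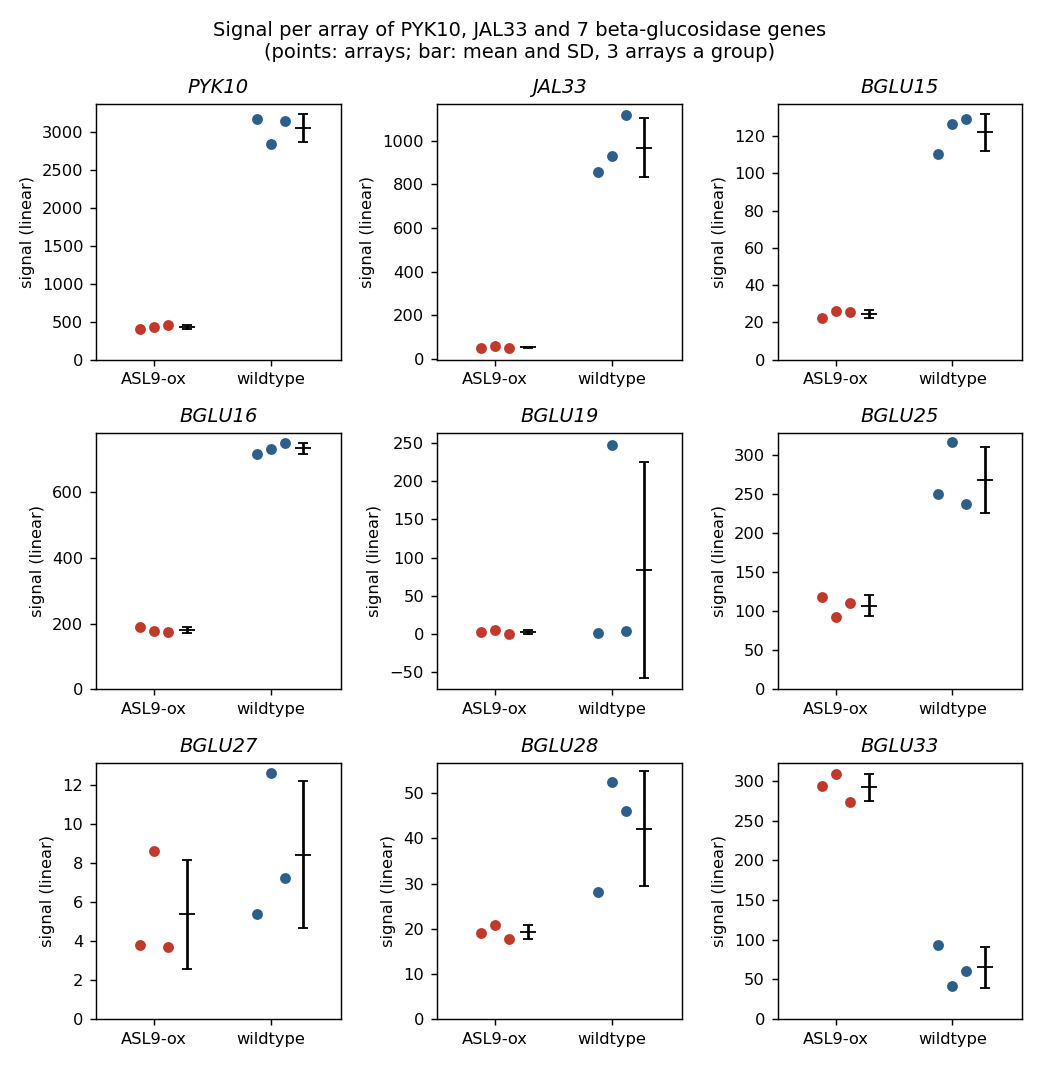
Signal (linear scale, own axis in each panel) of the 9 genes on the 3 ASL9-ox arrays (left in each panel) and the 3 wildtype arrays (right), with the mean and SD beside the points. The ASL9-ox arrays lie below all wildtype arrays for PYK10, JAL33, BGLU15, BGLU16, BGLU25 and BGLU28 and above them for BGLU33, and the groups overlap for BGLU19 and BGLU27.

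BGLU16 (AT3G60130) had the tightest replicates of the family. It read 189.8, 178.0 and 174.0 in ASL9-ox and 716.3, 731.7 and 749.4 in wildtype, a coefficient of variation of 4.56% in ASL9-ox and 2.26% in wildtype. Its log2 difference was -1.93 ± 0.07 (SE), with wildtype 4.06 times higher by the ratio of means. BGLU27 (AT3G60120) is its direct neighbour on chromosome 3, with 0 protein-coding genes between them in the RefSeq annotation, and gave a different picture. Its signals of 3.80, 8.58 and 3.70 in ASL9-ox and 5.39, 12.6 and 7.20 in wildtype all lay below 16 and overlapped, with a log2 difference of -0.19 ± 0.15 (SE).

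A second pair of neighbours, BGLU15 (AT2G44450) and BGLU28 (AT2G44460) on chromosome 2, was lower in ASL9-ox for both genes. BGLU15 read 22.18, 26.16 and 25.56 in ASL9-ox and 110.6, 126.3 and 129.0 in wildtype, without overlap. The log2 difference of this flavonol glycoside hydrolase gene was -1.76 ± 0.09 (SE). With a pseudocount of 1 it was -2.26 and with one of 64 it was -1.07, because the ASL9-ox signals lie close to the number added. BGLU28 read 19.02, 20.87 and 17.71 in ASL9-ox and 28.04, 52.54 and 46.06 in wildtype. Its groups lay 1.34-fold apart at the nearest arrays, the narrowest gap among the members without overlap, and its log2 difference of -0.70 ± 0.16 (SE) was -0.35 with a pseudocount of 64.

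BGLU25 (AT3G03640) read 118.4, 92.41 and 110.6 in ASL9-ox and 250.4, 316.9 and 237.0 in wildtype. The lowest wildtype signal was 2.00 times the highest ASL9-ox signal, and the log2 difference was -1.20 ± 0.12 (SE). BGLU33 (AT2G32860), the gene for the enzyme that frees abscisic acid, was the member with the opposite direction. It read 294.1, 308.4 and 274.0 in ASL9-ox and 92.73, 41.80 and 60.25 in wildtype, which makes the ASL9-ox mean 4.50 times the wildtype mean. Its log2 difference was 1.98 ± 0.19 (SE), and 48 of the 17059 probe sets had one as high or higher. The wildtype arrays varied more among themselves than those of ASL9-ox, with coefficients of variation of 5.91% in ASL9-ox and 39.7% in wildtype, and without wildtype replicate 2, the lowest array, the difference was 1.76.

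The wild-type mean of BGLU19 (AT3G21370) was set by a single array. Its signals were 1.87, 5.06 and 0.476 in ASL9-ox, and 0.714, 247.7 and 4.26 in wildtype, where the high value belongs to wildtype replicate 2. The log2 difference was -1.28 ± 0.86 (SE) with all arrays and -0.0026 without that array. Both measured seed markers, of 18 matched to a gene, were high on the same array. OLEO3, an oil body gene, had a signal of 503.8 there and 4.55 to 9.88 on the other 5 arrays, and the storage protein gene PAP85 read 806 against 0.969 to 3.76. Over the 2 markers the summed signal ran from 9.06 to 12.6 in ASL9-ox, was 8.16 and 8.31 on the other wildtype arrays and reached 1310 on wildtype replicate 2. Over all tested probe sets this array had a residual SD of 0.228 (log2 values), where the other 5 had 0.128 to 0.160. The part of the seed transcripts in the BGLU19 value was not tested.

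**Figure D2:**
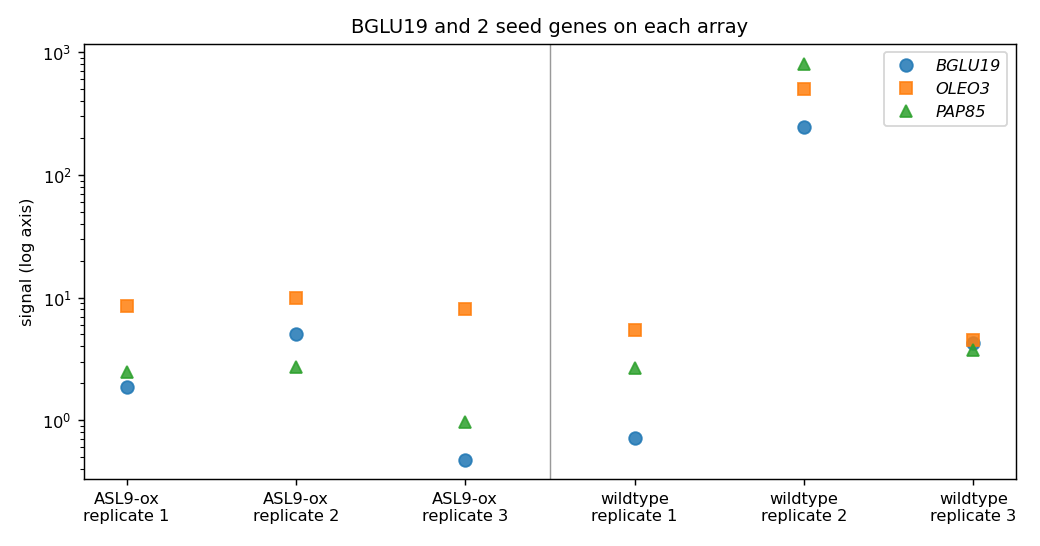
Signal on a log axis of BGLU19 and of the seed genes OLEO3 and PAP85 on each of the 6 arrays, ASL9-ox on the left and wildtype on the right. On wildtype replicate 2 they read 247.7 (BGLU19), 503.8 (OLEO3) and 806 (PAP85), and on the other 5 arrays none of the 3 exceeds 9.88.

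Of the 9 members, 6 passed the threshold of 0.05 as lower in ASL9-ox, 1 passed as higher and 2 (BGLU19 and BGLU27) did not pass, by limma's moderated test with p-values adjusted after Benjamini and Hochberg over the 17059 probe sets. Over all of these, 17.0% passed as lower and 24.6% as higher, 41.6% in all. The groups did not overlap for 6 members that were lower and for 1 that was higher, where this held for 21.2% and 32.8% of all probe sets, 54.0% in all. Nothing is read from these member counts, since the same contrast was known when the members were chosen. The median log2 difference was -1.28 over the members and 0.08 over all probe sets tested, and the middle part of all probe sets, from the lower to the upper quartile, ran from -0.16 to 0.29. The member median is the value of BGLU19, which had an SE of 0.86 and was -0.0026 without wildtype replicate 2. Without wildtype replicate 2 the differences of PYK10, JAL33, BGLU15, BGLU16, BGLU25 and BGLU28 were -2.83, -3.84, -1.74, -1.93, -1.08 and -0.57.

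**Figure D3:**
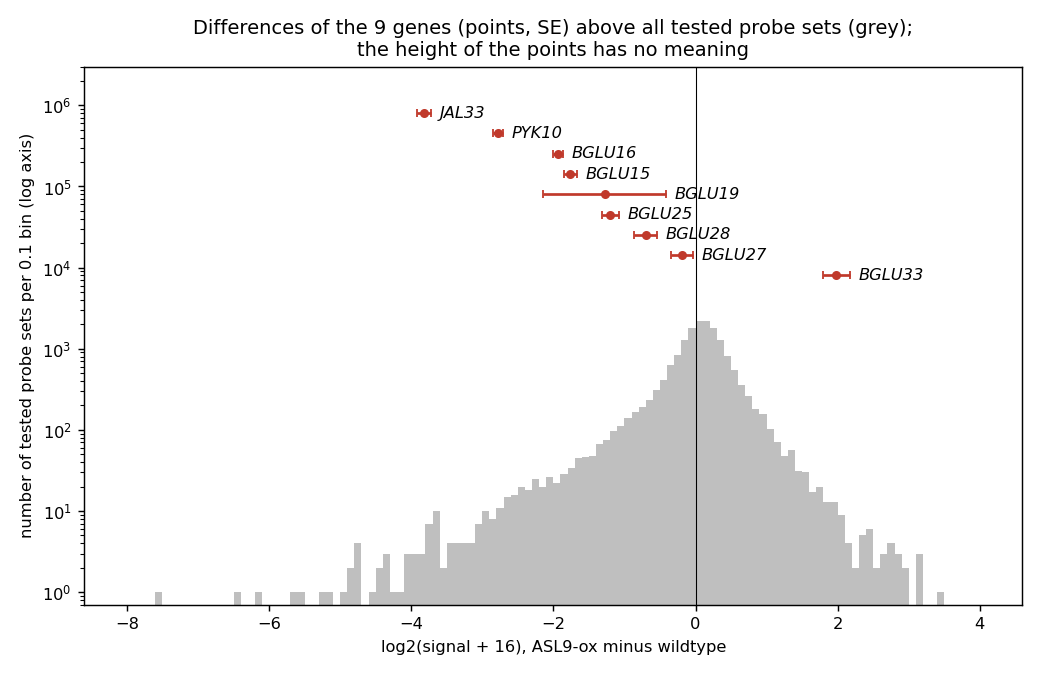
Log2 differences, ASL9-ox minus wildtype, of the 9 genes (points with SE, height without meaning) above the histogram of all 17059 probe sets tested (log axis for their number). JAL33 at -3.82 and PYK10 at -2.78 lie in the lower tail, BGLU33 at 1.98 in the upper tail and BGLU27 at -0.19 near the centre.

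Further genes of the family with numbers below 40 had a probe set of their own but are not among the members. They were 5 genes under BGLU symbols, BGLU24, BGLU29, BGLU31, BGLU32 and BGLU36, and ATA27, a synonym of which is BGLU20, and all of these lay below the filter on dim probe sets. BGLU27 was the member nearest to that limit, with a mean of 4.503 on the log2(signal + 16) scale against a limit of 4.498, and BGLU24 the nearest gene outside it with 4.434. BGLU19, with a mean of 4.841, passed the limit only through wildtype replicate 2, since its signals on the other arrays were 0.476 to 5.06. BGLU29 lies beside BGLU28 on chromosome 2 and read 4.57, 0.478 and 2.90 in ASL9-ox and 6.06, 10.9 and 8.70 in wildtype.

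The proteins that build ER bodies and the PYK10 complex were represented by 6 genes with a probe set of their own, of 17 matched, and all 5 that passed the filter fell in ASL9-ox, with a median log2 difference of -1.97. As for the other lists below, the genes were chosen with earlier results of these data known, and the share of all probe sets that passed as lower was 17.0%. NAI1, the transcription factor gene, read 23.93, 17.70 and 13.60 in ASL9-ox and 61.54, 47.61 and 79.64 in wildtype, a log2 difference of -1.19 ± 0.16 (SE; limma adjusted p = 0.000397). NAI2, the ER body component, read 92.06, 104.0 and 81.55 in ASL9-ox and 580.8, 587.0 and 703.1 in wildtype, a difference of -2.56 ± 0.10 (limma adjusted p = 2.79e-07). Neither gene had overlapping groups.

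The lectin genes of the complex fell as well. JAL34, the direct neighbour of JAL33 on chromosome 3, averaged 98.9 ± 10.2 in ASL9-ox and 940 ± 119 in wildtype (SD, n = 3 each), a log2 difference of -3.05 ± 0.11 (SE; limma adjusted p = 9.77e-08). JAL22 averaged 82.6 ± 8.74 in ASL9-ox and 370 ± 45.6 in wildtype, with a difference of -1.97 ± 0.11. JAL23 averaged 35.4 ± 9.43 in ASL9-ox and 165 ± 27.7 in wildtype, with a difference of -1.82 ± 0.15, and both had limma adjusted p-values below the threshold (1.53e-06 and 2.09e-05). The remaining gene, ATA27, had mean signals of 2.22 in ASL9-ox and 3.38 in wildtype and was not tested. A probe set that the annotation pairs with 2 beta-glucosidase genes at once, and which is therefore assigned to neither, read 0.332, 0.302 and 5.44 in ASL9-ox and 489, 481 and 549 in wildtype. Its log2 difference of -4.87 ± 0.12 (SE) was larger than that of any member, JAL33 included.

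**Figure D4:**
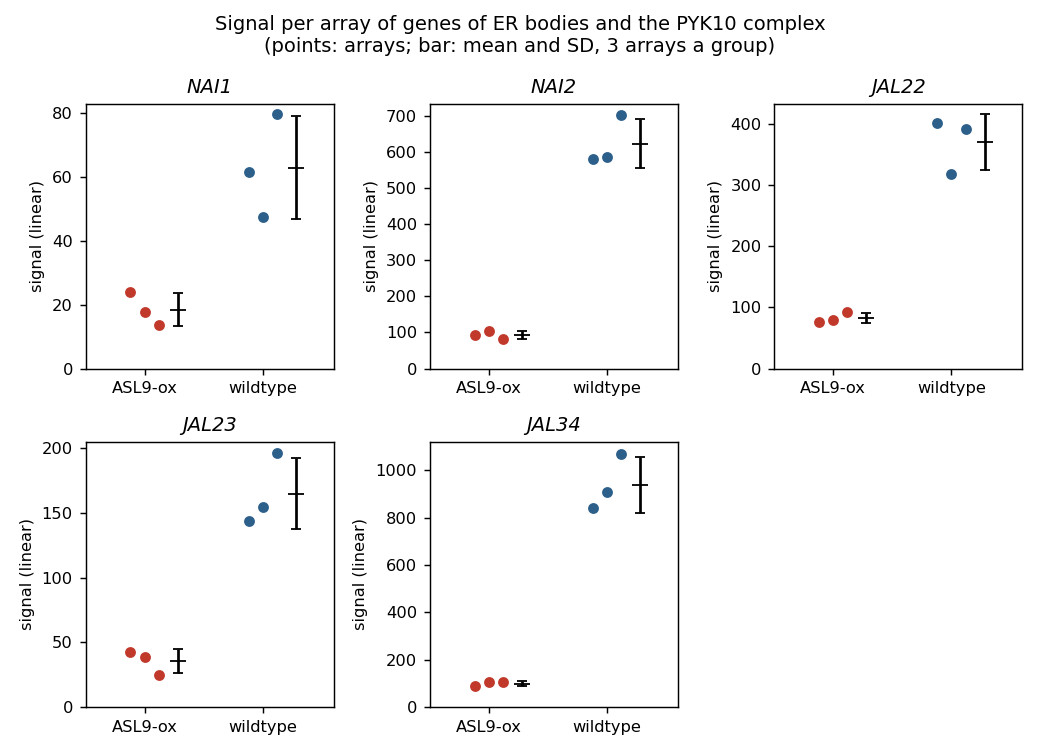
Signal (linear scale, own axis in each panel) of the 5 tested genes of ER bodies and the PYK10 complex on the 3 ASL9-ox arrays (left) and the 3 wildtype arrays (right), with mean and SD. All 5 genes are lower on every ASL9-ox array than on any wildtype array, JAL34 with 98.9 ± 10.2 in ASL9-ox and 940 ± 119 in wildtype.

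PYK10 is best known from roots and hypocotyls. Of 24 root markers, 2 had a probe set of their own, the root hair expansin genes EXPA7 and EXPA18. Their summed signal ran from 5.75 to 17.5 in ASL9-ox and from 4.47 to 17.7 in wildtype, so these markers were near 0 in both groups and overlapped. The 3 measured leaf markers LHCB4.1, LHCB4.2 and RCA, of 13 matched, rose in ASL9-ox. Their summed signal was 14060 to 14750 in ASL9-ox and 10020 to 10970 in wildtype, and without wildtype replicate 2 RCA no longer passed (limma adjusted p = 0.095). The 2 root markers are root hair genes and do not cover the rest of the root, and no hypocotyl marker was listed. The part of the tissue makeup in the differences of PYK10 and JAL33 was not tested.

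For glucosinolates, 5 of 45 matched genes had a probe set of their own, all of synthesis or transport and none of breakdown. Of these 5 tested genes, 3 fell and 2 did not pass (median log2 difference -0.63). The glucosinolate transporter gene GTR1 averaged 124 ± 12.4 in ASL9-ox and 389 ± 35.9 in wildtype (SD, n = 3 each), a log2 difference of -1.53 ± 0.10 (SE; limma adjusted p = 3.40e-06). Its homologue GTR2 had a difference of 0.02 ± 0.09 and did not pass (limma adjusted p = 0.882). BCAT4, which starts the chain elongation of methionine, and UGT74B1, the glucosyltransferase of the core pathway, had differences of -0.86 ± 0.09 and -0.63 ± 0.07. AOP3 read 6.30, 11.3 and 8.05 in ASL9-ox and 3.18, 74.6 and 3.34 in wildtype, with the high value again on wildtype replicate 2. Its log2 difference was -0.40 ± 0.51 with all arrays and 0.35 without that array, and it passed in neither case (limma adjusted p = 0.564 and 0.0926).

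For coumarins, substrates of enzymes of the family when stored as glucosides, 5 of 12 matched genes had a probe set of their own. All 5 were tested and 3 fell (median -0.48). AT3G13610 (F6'H1), which encodes the hydroxylase that makes the coumarin core, averaged 13.0 ± 16.3 in ASL9-ox and 55.5 ± 7.06 in wildtype, a log2 difference of -1.44 ± 0.31 (SE; limma adjusted p = 0.00513). HCT, of the shared phenylpropanoid route, had a difference of -0.48 ± 0.09. UGT71C1, at -0.54 ± 0.17, had signals below 16 on average in both groups, and its adjusted p was 0.0349 by limma, with a range over the alternatives of 0.00455 to 0.109. Its call was lost without any 1 of the arrays other than ASL9-ox replicate 1. Of the flavonol and anthocyanin genes, 4 of 15 matched had a probe set of their own, and 2 of the 3 tested fell. The reductase gene DFR had a difference of -1.37 ± 0.18 and the 3-O-glucosyltransferase gene UGT78D2 one of -0.61 ± 0.12, whereas UGT78D1, a rhamnosyltransferase gene, had 0.13 ± 0.16 and did not pass.

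Of 32 matched jasmonate genes, 5 had a probe set of their own. Of these, 4 were tested and 3 rose, where 24.6% of all probe sets did. The bHLH factor genes MYC3 and MYC4 had small log2 differences of 0.23 ± 0.08 and 0.40 ± 0.12 (SE). The defensin gene PDF1.2 had 1.01 ± 0.35 with overlapping groups. All 3 calls were lost under several alternatives. That of MYC3 was lost without any 1 of the 6 arrays, that of MYC4 without either of the ASL9-ox replicates 1 and 2 or without wildtype replicate 2, and that of PDF1.2 without wildtype replicate 1 or 2 or ASL9-ox replicate 1 or 3. Without wildtype replicate 2 the limma adjusted p-values of MYC3, MYC4 and PDF1.2 were 0.115, 0.0615 and 0.113, and centring on the hybridization controls gave 0.437 for MYC3 and 0.0894 for MYC4. Over all alternatives they ran from 0.0318 to 0.437, from 0.0126 to 0.0894 and from 0.003 to 0.151.

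On the side of abscisic acid, UGT71C5 encodes an enzyme that attaches glucose to the hormone, the reverse of the step of BGLU33. It averaged 110 ± 11.7 in ASL9-ox and 90.9 ± 16.2 in wildtype and did not pass (log2 difference 0.24 ± 0.12; limma adjusted p = 0.153). UGT71B6, with the same activity, had mean signals of 7.38 in ASL9-ox and 4.78 in wildtype and was not tested. The other 20 of the 22 matched genes of this list, and all 17 of the sulfur deficiency list that bears on BGLU28, lacked a probe set assigned to them alone and are not analysed here.

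The beta-glucosidases from BGLU40 to BGLU47, all 8 of which were tested, gave 3 falls, 1 rise and 4 genes that did not pass, with a median log2 difference of -0.05. BGLU45 and BGLU46, which act on glucosides of lignin precursors, had differences of -2.34 ± 0.15 and -2.06 ± 0.12 (SE), and BGLU44 one of 0.58 ± 0.12. BGLU41, at -0.44 ± 0.14, had mean signals of 3.66 in ASL9-ox and 10.7 in wildtype, and without wildtype replicates 2 or 3 or ASL9-ox replicate 3 it did not pass (limma adjusted p = 0.102, 0.0616 and 0.104; 0.0197 to 0.104 over all alternatives). BGLU47, at 0.33 ± 0.16, passed without wildtype replicate 2 (0.51; limma adjusted p = 0.0124) and not with all arrays (0.132). Whether these 8 genes differ as a set from PYK10 and its relatives was not tested.

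**Figure D5:**
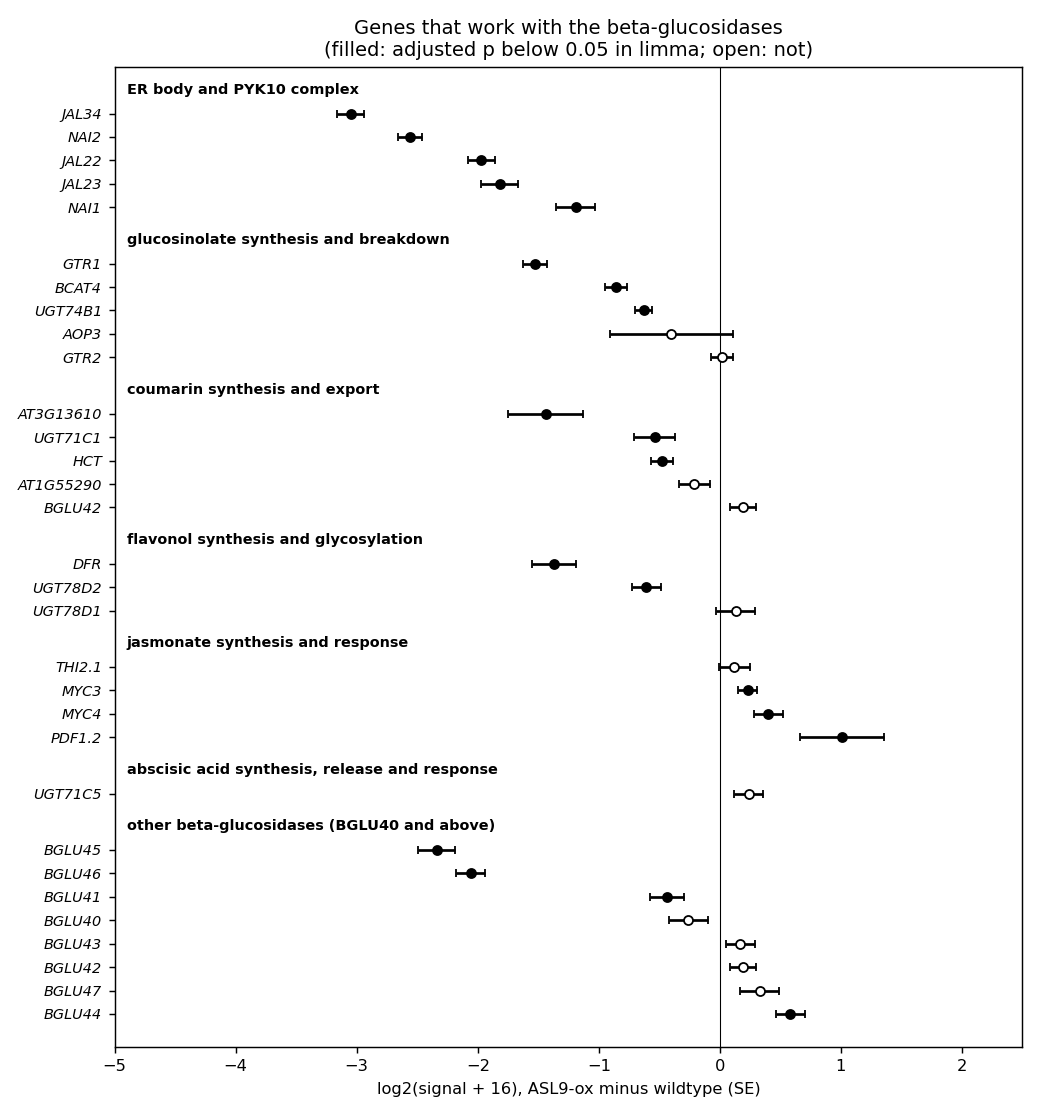
Log2 differences with SE, ASL9-ox minus wildtype, of the 30 tested genes of the lists, by list (BGLU42 stands in 2 lists). The lists cover whole pathways and further beta-glucosidases, so a place in them does not mean that a gene works with the members. Filled points passed the threshold of 0.05 in limma and open points did not; the 5 genes of ER bodies and the PYK10 complex run from -3.05 (JAL34) to -1.19 (NAI1).

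The probe sets whose profile over the 6 arrays was nearest to that of PYK10 were, with members left out, those of AT5G23830, AT5G14650, AT3G21680, AT4G36430 and AT5G64100. Their root mean square distance from it was 0.074 to 0.139 on the log2(signal + 16) scale after centring each gene on its mean. For JAL33 the nearest were AT1G74010, the peroxidase gene PRX52, AT3G20370, the chitinase gene ChiC and AT1G52100, at distances of 0.073 to 0.209. The signals of AT5G23830 were 1.67, 3.45 and 2.79 in ASL9-ox and 102.5, 95.3 and 114 in wildtype, so a likeness on this scale can join genes whose linear folds differ. The measure covers 6 arrays in 2 groups and is given as a description.

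Across the whole experiment, Pearson correlations of log2 signals over probe sets, which are no independent replicates, were 0.9275 to 0.9531 for pairs of arrays from different groups and 0.9794 to 0.9926 for pairs within a group. Between 36.8% and 37.9% of the probe sets of an array lay below a signal of 16. The ratio of 3' to 5' control probe sets, which bears on RNA quality, was high for actin. It was 6.74 to 8.69 in ASL9-ox and 8.45 to 9.11 in wildtype. For GAPDH it was 1.31 to 1.41 in ASL9-ox and 1.03 to 1.33 in wildtype. The part of RNA quality in the differences was not tested. The largest difference of all belonged to a probe set without a gene name here, which read 11.02, 14.34 and 7.22 in ASL9-ox and 5195, 5195 and 4914 in wildtype. Whether this probe set reads the ASL9 transcript was not tested. If it does, the labels of the groups are exchanged and every direction given here turns round.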

How the data were processed

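The authors deposited 1 table of MAS5 signal intensity values for 22810 probe sets on 6 arrays. Per the submitters' processing notes the tools were MAS5 and GCOS, with no version listed. The intensities were linear, and their mean without the lowest and highest 2% was 100 on every array, so this scaling hides any change common to the whole transcriptome. No detection calls were used, and the number of arrays limits the precision.

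Probe sets were named through the platform annotation (13513 with 1 gene, 503 with several), with symbols and gene order from RefSeq for TAIR10.1. No probe or promoter sequences were used. After log2(signal + 16), the 64 control probe sets and the dimmest 25% by mean log2 value were dropped and 17059 kept. The comparison of the groups used limma 3.58.1 under R 4.3.3 (lmFit, eBayes with an intensity trend, two-sided, Benjamini-Hochberg, threshold 0.05; prior degrees of freedom 5.11). The procedure was also run on simulated data with independent normal noise and few changed probe sets. That setting differs from these data, where 41.6% of probe sets passed, so nothing is drawn from it. The members and the 8 lists were chosen with earlier results of these data known. List names were looked up among symbols and synonyms, and each gene was read by its probe set with the highest mean. The names CHI, which led to a chitinase gene, and PEN2, which led to a triterpene synthase gene, were left out. From each list the text names up to 5 genes with the largest difference among those past the threshold, or up to 2 with the smallest p where none passed, and the 5 nearest profiles to PYK10 and JAL33. Other genes were named after their values were seen. Alternatives were quantile normalization, centring on 18 hybridization control probe sets, pseudocounts of 1 and 64, no filter and the dimmest 50% left out, eBayes without a trend, the replicate number as a block and each array left out. Figures were drawn with matplotlib 3.10.9.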

Additional observations from a re-analysis of the deposited data

How the results depend on the processing

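The 9 members gave 123 values under 14 alternatives, of which 109 moved by less than the SD between replicates, 14 moved by more and 0 changed sign. The 14 moved values came from the pseudocounts and from centring on the hybridization controls, which shifted the median of all probe sets by -0.082 on the log2 scale. The filters, eBayes without a trend and the replicate block cannot change a log2 difference, so the 109 include values fixed in advance. They also include BGLU19 without wildtype replicate 2, which went from -1.28 to -0.0026. Its SD of 1.58, against which the move was judged, includes that array. PYK10 lay between -2.87 and -2.66 over the alternatives and JAL33 between -4.15 and -3.13. BGLU19, BGLU27 and BGLU28 fell out when the dimmest 50% were removed. The 20 list genes that passed became 16 to 20 under the alternatives and 16 to 18 with 1 array left out, and 15 passed under every alternative that tested them. Over all probe sets 7096 passed, 5283 to 7070 under the alternatives and 5594 to 6399 with 1 array left out. Centring on the hybridization controls made 44.7% of the calls higher in place of 59.2%. A fit with a replicate block passed 6174 probe sets and 18 list genes, and the calls for UGT71C1 and MYC3 were lost (limma adjusted p = 0.0572 and 0.0926). Same-numbered arrays deviated from their group means with correlations of -0.116, -0.0606 and 0.0198, no wildtype array correlated best with the ASL9-ox array of its own number, and the replicate numbers were therefore not treated as pairs. Where calls were lost, the cause was not tested.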

Other observations

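The profiles nearest to the other members were looked at after their values were seen. Those nearest to BGLU19 were AT1G54860, AT1G54870, AT3G63040, AT2G34700 and ATOEP16-2, at root mean square distances of 0.142 to 0.215. Each of them was high on wildtype replicate 2, as was BGLU19. AT2G34700, for example, read 1.78, 0.763 and 1.19 in ASL9-ox, and 1.09, 281 and 1.55 in wildtype. Nearest to BGLU33, at 0.114 to 0.166, were AT3G07010, AT1G66940, AT4G18970, AT5G44680 and AT3G46490. AT4G18970 read 200.7, 258 and 214 in ASL9-ox and 56.8, 37.1 and 44.0 in wildtype. Among the wildtype arrays, replicate 1 was the highest for BGLU33 and for all 5 of these genes. The genes near BGLU19 and BGLU33 were picked by these same array values, so the shared patterns are no separate observation.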
